A study of Mus musculus with 20 samples.

Results

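The genes described here serve protein folding in the endoplasmic reticulum (ER) and the stress responses that adjust it, and they were the 36 genes of a fixed list of symbols, all 36 of which were found among the 23020 genes of the table. The list was set by function, with no threshold on measured values, but with earlier results of these data known. RNA came from small intestinal crypts of C57BL/6 mice, and 3′ ends of polyadenylated RNA were sequenced with unique molecular identifiers, so that each transcript counts once whatever its length. The groups compared were 6 wild-type (WT) mice and 4 Xiap-/- mice housed by genotype, called housed apart here, and 5 WT mice and 5 Xiap-/- mice that had shared housing for 4 weeks, called co-housed. Xiap encodes an inhibitor of caspases and of cell death, and the comparisons ask how its loss, and housing with mice of the other genotype, relate to the crypt transcriptome. The labels give neither age, sex nor cage, and they do not say which part of Xiap was deleted or whether it was deleted in all cells. Values are the authors' normalized levels on a log2 scale, so that a higher value means more transcript.

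Proteins bound for secretion or membranes enter the ER through the SEC61 channel, are folded by chaperones such as BiP and by disulfide isomerases, and are extracted and degraded when folding fails. The membrane sensors IRE1α (encoded by Ern1), PERK (Eif2ak3) and ATF6 start the unfolded protein response when misfolded proteins accumulate. IRE1α splices Xbp1 mRNA into the form that encodes an active transcription factor, cleaved ATF6 enters the nucleus, and PERK slows translation while it favours translation of ATF4. The kinases of the integrated stress response, of which PERK is one, all converge on ATF4. Crypts hold Paneth cells and goblet cells, professional secretory cells that depend on this machinery, and XBP1 is known to be needed for Paneth cells. Splicing of Xbp1, cleavage of ATF6 and translation of Atf4 are not read by a count of 3′ ends.

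Some promoters of the group carry the DNA elements through which these responses act, and they are shown first because the known regulators act there. Others, among them those of Xbp1, Atf4 and Ddit3, had no match to the elements searched. RefSeq windows from 250 bases before to 50 bases after the start of transcription (GRCm38.p6) were matched to 32 of the 36 genes, and Atf6, Hyou1, Manf and Derl1 had no window in the table used. The ER stress response element, CCAAT and CCACG with 9 bases between them on either strand, is bound by NF-Y and by ATF6 or XBP1. It was found in 9 of the 32 genes (28.1%), compared with 0.137% of all 27025 genes with a window. Those 9 were Hspa5, Hsp90b1, Calr, Canx, Dnajc3, Creld2, Pdia6, Syvn1 and Derl3. The members were listed for their part in these responses, so a share above that of all genes was built in and tests nothing. In the sequences printed here, 5′ to 3′ on the gene's own strand, capitals mark the element, which reads CGTGG first where it lies on the opposite strand.
Hspa5, chr2:34771840-34772089, plus strand: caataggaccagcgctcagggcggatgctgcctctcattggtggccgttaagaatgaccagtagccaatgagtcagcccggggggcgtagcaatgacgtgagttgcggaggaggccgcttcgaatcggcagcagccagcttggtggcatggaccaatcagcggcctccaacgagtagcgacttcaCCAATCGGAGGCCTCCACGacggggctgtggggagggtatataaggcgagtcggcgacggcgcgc
Hsp90b1, chr10:86705518-86705671, minus strand: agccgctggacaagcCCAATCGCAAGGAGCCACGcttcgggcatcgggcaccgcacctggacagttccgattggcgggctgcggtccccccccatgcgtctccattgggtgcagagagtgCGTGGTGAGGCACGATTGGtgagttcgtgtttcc
Calr, chr8:84847060-84847108, minus strand: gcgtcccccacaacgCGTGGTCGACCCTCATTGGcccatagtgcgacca
Canx, chr11:50325785-50325833, minus strand: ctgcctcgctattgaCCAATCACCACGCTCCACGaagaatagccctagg
Dnajc3, chr14:118937812-118937860, plus strand: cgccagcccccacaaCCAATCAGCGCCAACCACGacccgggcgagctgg
Creld2, chr15:88819505-88819553, plus strand: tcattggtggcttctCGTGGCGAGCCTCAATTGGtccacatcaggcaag
Pdia6, chr12:17266476-17266524, plus strand: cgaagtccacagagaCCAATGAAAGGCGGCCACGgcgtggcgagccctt
Syvn1, chr19:6046517-6046565, plus strand: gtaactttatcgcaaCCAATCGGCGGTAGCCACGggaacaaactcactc
Derl3, chr10:75893227-75893275, plus strand: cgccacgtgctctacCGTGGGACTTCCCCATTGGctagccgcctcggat
Hspa5, the gene of BiP, is shown with the 250 bases before its start, where the element lies between bases -65 and -47. Hsp90b1, the gene of GRP94, had 2 copies in opposite orientation. The spacing and every letter of the CCAAT and CCACG parts were fixed in the search, so other spacings and variant letters would be missed. The counts are therefore of exact matches only.

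The second element, ERSE-II, ATTGG and CCACG with 1 base between them on either strand, was found in Dnajb11 and Herpud1, 6.25% of the members compared with 0.0444% of all genes. The C/EBP-ATF response element, which ATF4 binds with a C/EBP partner, was searched as TGATGNAAN on either strand and was found in 5 members (15.6%) compared with 4.5% of all genes. These were Txndc5, Herpud1, Trib3, Asns and Chac1, and the last 3 are textbook targets of ATF4. The core TGACGTGG, bound by XBP1 and ATF6, was found in Txndc5 alone among the 32, compared with 0.714% of all genes. Capitals again mark the elements, and Herpud1 carries both an opposite-strand C/EBP-ATF element and, nearer the start, ERSE-II.
Dnajb11, chr16:22857843-22857871, plus strand: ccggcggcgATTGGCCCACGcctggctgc
Herpud1, chr8:94386301-94386402, plus strand: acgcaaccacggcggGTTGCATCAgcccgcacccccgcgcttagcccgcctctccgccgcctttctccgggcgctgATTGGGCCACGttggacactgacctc
Trib3, chr2:152344030-152344056, minus strand: tagctcaggTTTACATCAgccgggcgg
Asns, chr6:7693215-7693241, minus strand: ccagccacaTGATGAAACttcccgcac
Chac1, chr2:119351033-119351071, plus strand: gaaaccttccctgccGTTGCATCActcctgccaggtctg
A match describes these letters only, and binding was not measured. The shares of these elements, too, come from a list set by function and are no test.

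The levels of the 36 genes spanned a wide range, with folding genes at the top and 4 stress or degradation genes at the bottom, and roles were mixed between. By mean level over the 20 mice, P4hb, the disulfide isomerase that also serves prolyl hydroxylase, led at 11.52, followed by Canx (calnexin, a lectin chaperone) at 10.11, Hspa5 at 9.98, Hsp90b1 at 9.73 and Calr (calreticulin) at 9.15. At the other end, Trib3, a pseudokinase induced by ATF4 and CHOP, had a mean of 3.58, Ppp1r15a, the phosphatase subunit GADD34 that ends the translational block, 2.26, Chac1, a glutathione-degrading enzyme, 0.87 and Derl3, a derlin of ER-associated degradation, 0.37. Ppp1r15a, Chac1 and Derl3 lay below the minimum mean of log2 of 10 set for tests and were not tested, which left 33 members among 9521 tested genes. The chaperones Hyou1 (4.74) and Dnajb9 (5.15) and the isomerase Pdia5 (4.80) lay no higher than the stress targets Ddit3 (5.29) and Asns (5.15). Among the sensors and factors, Atf4 stood highest at 8.39, followed by Xbp1 at 8.01, while Atf6 (5.72), Ern1 (4.65) and Eif2ak3 (4.27) were lower. Mice of 1 group varied about as much in these genes as in others, with a median within-group SD of 0.149 for the members and 0.151 for all tested genes. Txndc5, a disulfide isomerase, varied least (SD 0.087) and Sdf2l1, an ER cochaperone of BiP that is strongly induced by stress, varied most (SD 0.281).

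**Figure D1:**
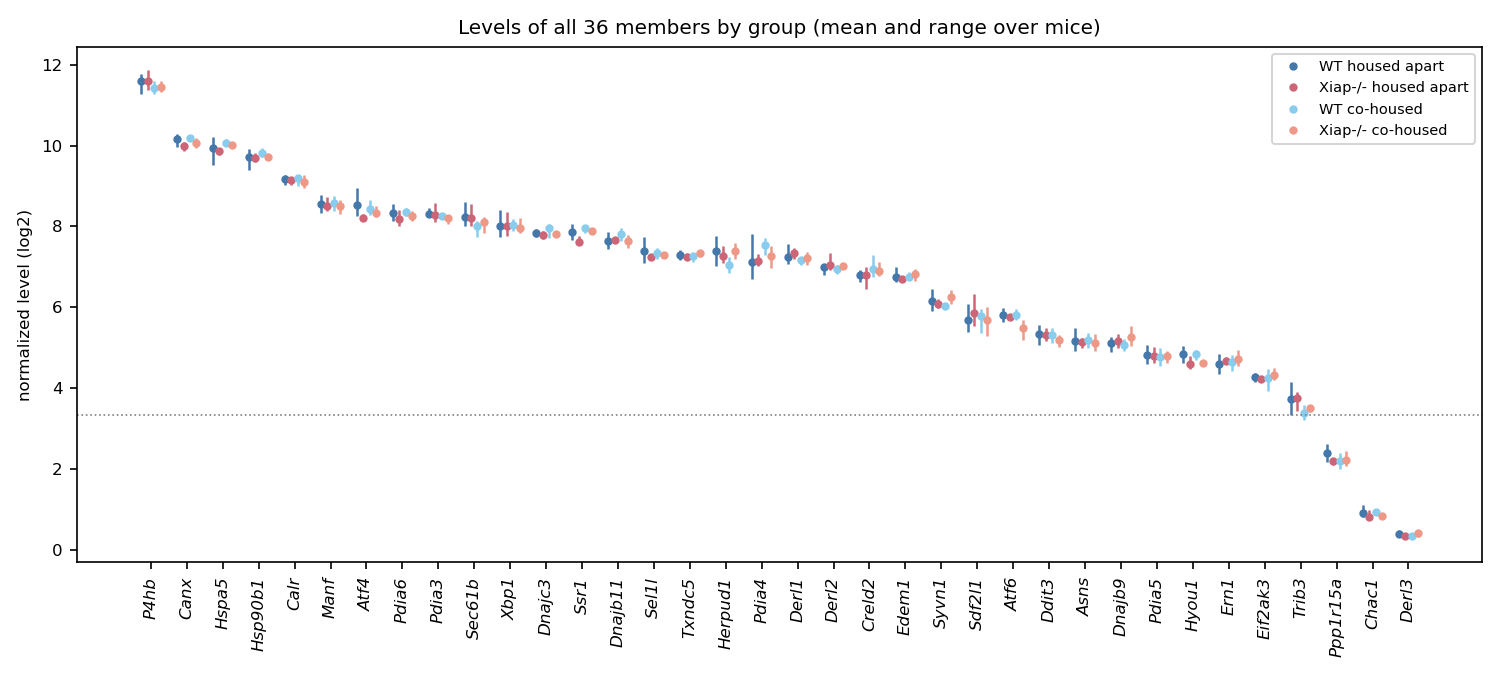
Normalized level (log2, vertical axis) of each of the 36 genes in the 4 groups, points giving group means and lines the range over mice; the dotted line is the minimum mean for tests. P4hb is highest at a mean of 11.52 over all mice, and Ppp1r15a, Chac1 and Derl3 lie below the line.

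The tissue label fitted the high Paneth and goblet cell markers, but markers of absorptive cells were about as high. The summed level of the 10 absorptive markers was 15.22 to 15.97 in WT mice housed apart. Fabp2, the highest of them, had a mean of 13.75, and the T cell marker Gzma had 9.16. Mean levels were 14.17 for Defa24, a Paneth cell defensin, and 12.80 for Zg16, a goblet cell lectin, while 1 of 8 listed hepatocyte genes, Ttr at 4.11, passed the minimum mean; one label on RNA extraction names liver. The summed level of 13 Paneth markers ranged from 15.26 to 15.69 in WT and 15.51 to 15.85 in Xiap-/- mice housed apart. In the co-housed groups it ranged from 15.13 to 15.79 in WT and 15.18 to 15.87 in Xiap-/- mice. The summed goblet markers overlapped across all 4 groups as well, within 13.82 and 14.48. Xiap itself was read at 6.56 to 7.08 in WT and 6.25 to 6.48 in Xiap-/- mice housed apart, and at 6.36 to 6.84 and 6.29 to 6.91 in the co-housed groups, and a 3′ tag outside the deleted part would not show the deletion. Library depth is unknown, and a proxy for it, the share of rare genes above their baseline, was 32.1% in Xiap-/- housed apart replicate 2, 16.6% in replicate 4 of that group, 14.9% in WT housed apart replicate 5 and 4.6% to 12.4% in the other mice. In bulk RNA, fewer cells of a type and less RNA per cell cannot be told apart.

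No ER stress or chaperone gene differed past the threshold between Xiap-/- and WT mice housed apart. The test was limma's moderated test with Benjamini-Hochberg adjustment over all 9521 tested genes, with a threshold of 0.05 on the adjusted p. It called 0 of the 33 members, compared with 0.452% of all tested genes (43), and 3 members had an unadjusted p under 0.05 (9.09%), compared with 15.8% of all tested genes. The median difference, Xiap-/- minus WT, was -0.02 over the members and -0.00 over all tested genes, and the 95% interval of every one of the 33 lay within a 1.5-fold change. The 3 members with the smallest p were Atf4, Ssr1 and Hyou1. In none of the 33 did the groups stand apart without overlap, compared with 1.87% of all tested genes.

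Atf4, the transcription factor at the centre of the integrated stress response, read 8.13, 8.16, 8.22 and 8.31 in the Xiap-/- mice housed apart, while the WT mice ranged from 8.26 to 8.96 with a median of 8.51. The groups overlapped by 1 WT mouse. The difference was -0.34 ± 0.10 (SE, n = 4 and 6), with an adjusted p of 0.11 in limma. Ssr1, a subunit of the translocon-associated protein complex at the SEC61 channel, read 7.54, 7.55, 7.63 and 7.76 in the Xiap-/- mice and 7.66 to 8.06, median 7.88, in the WT mice. Its difference was -0.25 ± 0.09 with an adjusted p of 0.17 in limma. Hyou1, the large chaperone GRP170 that exchanges nucleotide on BiP, read 4.47, 4.53, 4.57 and 4.80 in Xiap-/- and 4.61 to 5.04, median 4.90, in WT mice housed apart. The Hyou1 groups overlapped, with a difference of -0.26 ± 0.09 and an adjusted p of 0.17 in limma.
Without WT housed apart replicate 5, with its depth proxy of 14.9%, Atf4 (-0.39, adjusted p 0.015) and Ssr1 (-0.30, adjusted p 0.037) passed in limma, and with library weights Atf4 (adjusted p 0.029) and Ssr1 (adjusted p 0.046) passed too. The count over all tested genes, 43 in the main fit, also rose with library weights. It ranged from 9 to 697 as each library was left out. With the depth proxy as a covariate, the limma differences of Atf4, Ssr1 and Hyou1 were -0.29, -0.16 and -0.20, with adjusted p of 0.85, 0.89 and 0.88.

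The classical markers of the unfolded protein response lay close together in both genotypes. Hspa5, whose BiP protein holds the sensors inactive, read 9.76, 9.87, 9.89 and 9.95 in Xiap-/- mice and 9.52 to 10.22, median 9.91, in WT mice housed apart, a difference of -0.06 with a 95% interval from -0.27 to 0.14. For Hsp90b1 the Xiap-/- values were 9.60, 9.67, 9.70 and 9.82 and the WT values 9.39 to 9.92, median 9.73, with an interval from -0.21 to 0.18. Xbp1 read 7.76, 7.96, 8.01 and 8.36 in Xiap-/- and 7.74 to 8.40, median 7.90, in WT mice, with an interval from -0.23 to 0.27. Ddit3, which encodes the pro-apoptotic factor CHOP, read 5.17, 5.19, 5.44 and 5.48 in Xiap-/- and 5.06 to 5.57, median 5.35, in WT mice, with an interval from -0.22 to 0.18. In all 4 of these genes the WT range enclosed every Xiap-/- value. The annotation of GRCm38 has 2 overlapping entries named Ddit3, and the files do not say which was counted.

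In the wider markers, the genotype groups housed apart did differ. Summed over all 7 tuft cell markers, 4 of them tested, levels were 6.32 to 6.46 in Xiap-/- and 5.99 to 6.26 in WT mice. Of 10 enteroendocrine markers 1 was higher in Xiap-/- mice past the threshold (adjusted p 0.047 in limma), compared with 0.452% of all tested genes. Ttr, the 1 tested gene of the hepatocyte list, was higher too (0.42, adjusted p 0.035 in limma), and its cell source was not tested. All 10 enteroendocrine differences (median 0.16) and all 4 tuft cell differences (median 0.19, 0 past the threshold) were above 0, and all 5 tested B and plasma cell markers were below 0 (median -0.37, lowest -0.87), none of those 5 past the threshold. Summed over the 9 B and plasma cell markers found, levels were 8.67 to 9.05 in Xiap-/- and 8.24 to 9.9998 in WT mice. The highest of these markers was Cd74, with means of 8.61 in Xiap-/- and 8.97 in WT mice housed apart. Whether Cd74 stood for B and plasma cells here was not tested. The depth proxy was 9.55% to 32.1% in the Xiap-/- mice and 4.6% to 14.9% in the WT mice. The part of these cell type markers in the member values was not tested.

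**Figure D2:**
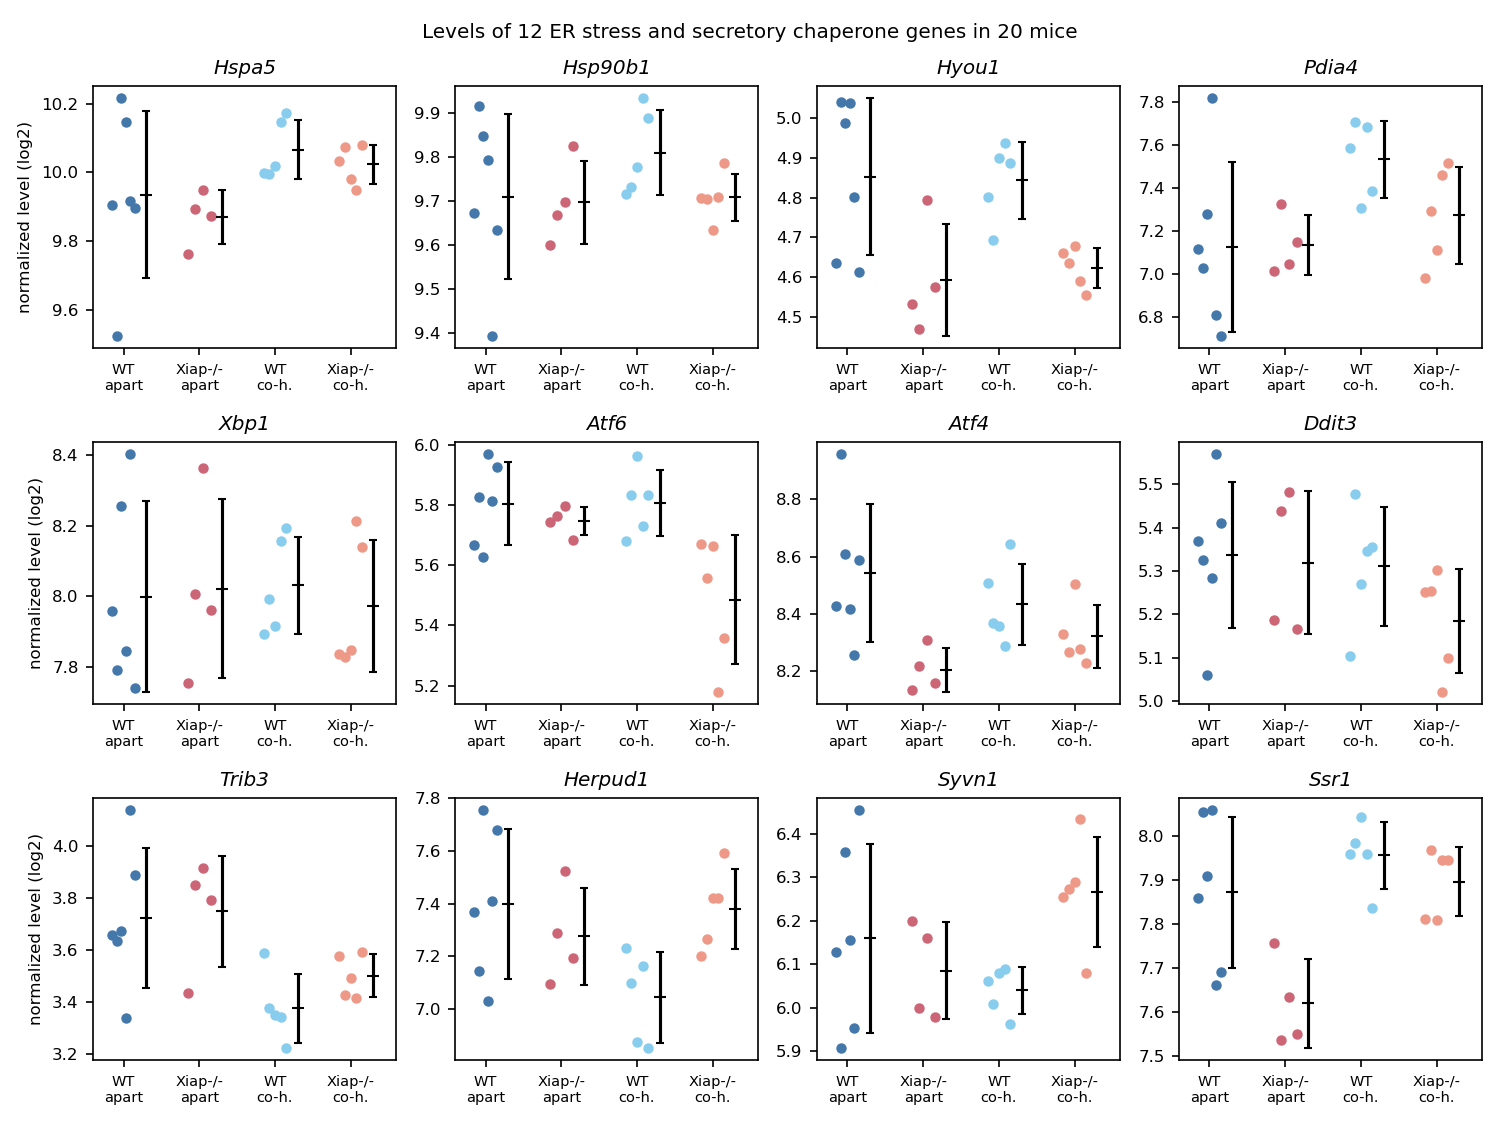
Normalized level (log2, vertical axes, each gene on its own scale that does not start at 0) of 12 genes in each mouse; points are mice, the dash and bar beside them the group mean and SD. For Xbp1 the 4 groups overlap. For Hspa5 the Xiap-/- mice housed apart (9.76 to 9.95) lie below the WT co-housed mice (9.996 to 10.17). All 5 Xiap-/- co-housed mice lie below all 5 WT co-housed mice for Atf6 and Hyou1.

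Between the co-housed genotypes no member passed either. limma called 0 of 33 members, compared with 0.0315% of all tested genes (3), and 4 members had an unadjusted p under 0.05 (12.1%), compared with 12% of all tested genes. The median difference was -0.06 over the members and 0.00 over all tested genes. Of the 11 chaperones 10 had a negative difference, with a median of -0.10, and of the 6 tested genes of ER-associated degradation 5 had a positive one, with a median of 0.07, while 51.1% of all tested genes had a positive difference. Among cell type markers in this comparison, 10 of 10 T cell markers (median 0.25), 7 of 7 stem cell markers (median 0.09) and 7 of 8 goblet markers (median 0.11) were above 0, none past the threshold, and their part in the member values was not tested. The 95% interval of each of the 33 lay within a 1.5-fold change.

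Atf6, the sensor that is cleaved to a transcription factor, read 5.18, 5.36, 5.56, 5.66 and 5.67 in Xiap-/- co-housed mice and 5.68, 5.73, 5.83, 5.83 and 5.97 in WT co-housed mice. Every Xiap-/- value lay below every WT value, by a narrow gap. The difference was -0.32 ± 0.09 (SE, n = 5 and 5) with an adjusted p of 0.17 in limma. Hyou1 likewise did not overlap, at 4.55, 4.59, 4.64, 4.66 and 4.68 in Xiap-/- and 4.69, 4.80, 4.89, 4.90 and 4.94 in WT mice, a difference of -0.22 ± 0.09 with an adjusted p of 0.33 in limma. Groups that did not overlap were seen in these 2 of 33 members and in 3.09% of all tested genes.
Herpud1, a ubiquitin-like membrane protein that scaffolds ER-associated degradation, was the member with the largest positive difference. It read 7.20, 7.27, 7.42, 7.42 and 7.59 in Xiap-/- and 6.85, 6.88, 7.10, 7.16 and 7.23 in WT co-housed mice, so that 1 value of each group overlapped the other. The difference was 0.33 ± 0.12 with an adjusted p of 0.24 in limma, and of 0.047 when the fit held the co-housed groups alone. That smaller fit also called more of all tested genes than the main fit did. Syvn1, the ubiquitin ligase HRD1 of the same pathway, read 6.08, 6.26, 6.27, 6.29 and 6.43 in Xiap-/- and 5.96, 6.01, 6.06, 6.08 and 6.09 in WT mice. Its difference was 0.23 ± 0.10 with an adjusted p of 0.34 in limma.

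The central markers overlapped between the co-housed genotypes. Hspa5 read 9.95, 9.98, 10.03, 10.07 and 10.08 in Xiap-/- and 9.996, 9.998, 10.02, 10.15 and 10.17 in WT co-housed mice, with a 95% interval of the difference from -0.25 to 0.16. For Hsp90b1 the values were 9.63, 9.70, 9.71, 9.71 and 9.79 against 9.72, 9.73, 9.78, 9.89 and 9.93, with an interval from -0.29 to 0.09. The values of Xbp1 were 7.83, 7.84, 7.85, 8.14 and 8.21 in Xiap-/- and 7.89, 7.92, 7.99, 8.16 and 8.19 in WT mice, with an interval from -0.30 to 0.19. All 3 overlapped. Atf4, lowest in Xiap-/- mice housed apart, read 8.23, 8.27, 8.28, 8.33 and 8.51 in Xiap-/- and 8.29, 8.36, 8.37, 8.51 and 8.64 in WT co-housed mice, a difference of -0.11 with an interval from -0.32 to 0.10. Ddit3 read 5.02, 5.10, 5.25, 5.25 and 5.30 in Xiap-/- and 5.11, 5.27, 5.35, 5.36 and 5.48 in WT co-housed mice, with an interval from -0.32 to 0.07.

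**Figure D3:**
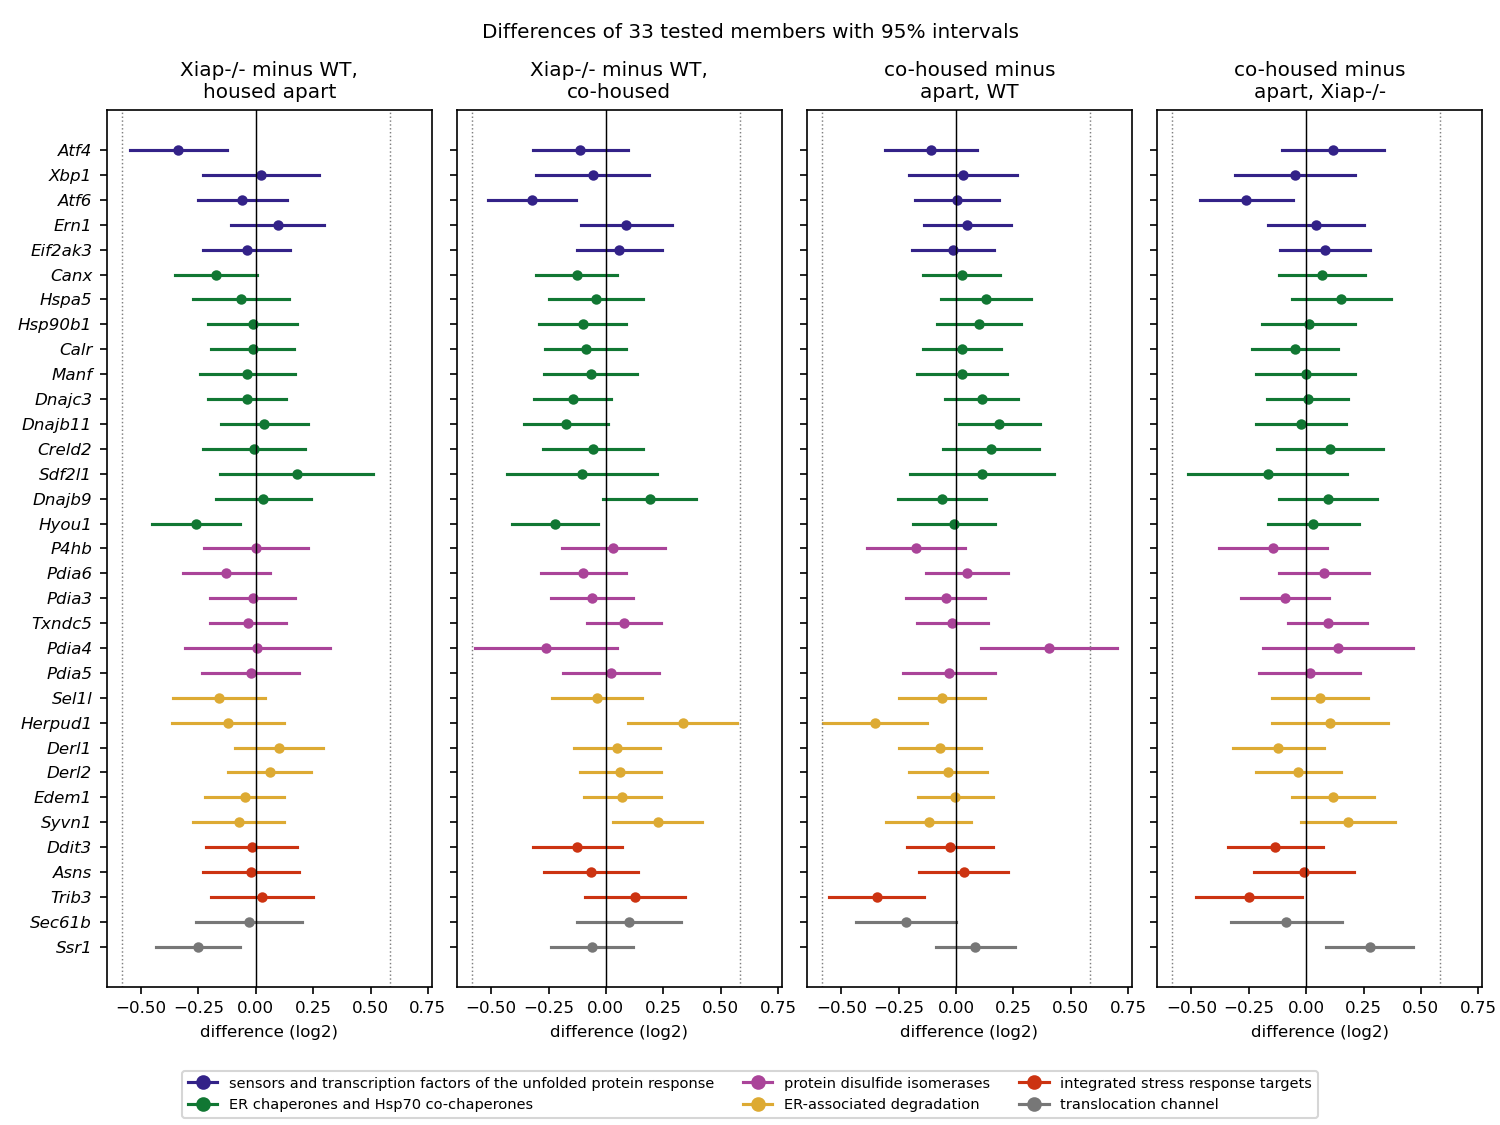
Differences in log2 level (horizontal axis) of the 33 tested genes in the 4 pairwise comparisons, points giving the limma estimate and lines its 95% interval, coloured by role; dotted lines mark a 1.5-fold change. All intervals lie within the dotted lines except that of Pdia4 in WT mice, co-housed minus apart, which reaches 0.70.

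Between co-housed WT mice and WT mice housed apart, no member and no other gene passed the threshold. limma called 0 of 33 members and 0% of all tested genes, and 4 members had an unadjusted p under 0.05 (12.1%), compared with 10.2% of all tested genes. The median difference, co-housed minus apart, was -0.00 over the members and -0.01 over all tested genes. Trib3 read 3.22, 3.34, 3.35, 3.38 and 3.59 in co-housed WT mice and 3.34 to 4.14, median 3.66, in WT mice housed apart, a difference of -0.35 ± 0.10 with an adjusted p of 0.30 in limma. Herpud1 was lower in co-housed WT mice by a similar size, at the values given above compared with 7.03 to 7.76, median 7.39, in WT mice housed apart, a difference of -0.35 ± 0.11 with an adjusted p of 0.32 in limma. The groups overlapped for both genes, as for every member, while 0.525% of all tested genes did not overlap.
Pdia4, a disulfide isomerase with several thioredoxin domains, had the widest spread of the isomerases. It read 7.30, 7.38, 7.59, 7.68 and 7.71 in co-housed WT mice and 6.71 to 7.82, median 7.07, in WT mice housed apart. The difference was 0.41 ± 0.14 with a 95% interval from 0.11 to 0.70 and an adjusted p of 0.37 in limma. WT housed apart replicate 4 held the highest Pdia4 value and the lowest Trib3 value of its group, and without it Pdia4 (0.54, adjusted p 0.023) and Trib3 (-0.42, adjusted p 0.033) passed in limma. Over all tested genes the count, 0 in the main fit, ranged from 0 to 66 as each library was left out. In Xiap-/- mice Pdia4 read 7.01, 7.05, 7.15 and 7.32 housed apart and 6.98, 7.11, 7.29, 7.46 and 7.51 co-housed, which overlapped.

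Between co-housed Xiap-/- mice and those housed apart, no member passed the threshold. limma called 0 of 33 members, compared with 0.147% of all tested genes (14), and 3 members had an unadjusted p under 0.05 (9.09%), compared with 11.3% of all tested genes. The median difference was 0.01 over the members and 0.00 over all tested genes. Ssr1 read 7.81, 7.81, 7.95, 7.95 and 7.97 in co-housed Xiap-/- mice, all above the 4 mice housed apart, whose highest value was 7.76. Its difference was 0.28 ± 0.09 (SE, n = 5 and 4) with an adjusted p of 0.25 in limma, and of 0.023 with library weights. Library weights took the count over all tested genes from 14 to 224. The co-housed WT mice read 7.84, 7.96, 7.96, 7.98 and 8.04 for Ssr1, overlapping the co-housed Xiap-/- mice. Atf6 lay lower in all 5 co-housed Xiap-/- mice than in the 4 housed apart, which read 5.68, 5.74, 5.77 and 5.80, a difference of -0.26 ± 0.10 with an adjusted p of 0.33 in limma. Groups that did not overlap were found for Ssr1 and Atf6 among the 33 members and for 5.63% of all tested genes. Trib3 read 3.41, 3.42, 3.49, 3.58 and 3.59 in co-housed Xiap-/- mice and 3.43, 3.79, 3.85 and 3.91 in those housed apart, a difference of -0.25 ± 0.11 with an adjusted p of 0.41 in limma. Of 4 tested tuft cell markers, 1 fell past the threshold in this comparison (adjusted p 0.028 in limma), compared with 0.147% of all tested genes. The part of that marker in the member values was not tested.

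Whether the genotype difference depended on housing was tested as an interaction, co-housed minus apart. limma called 0 of 33 members, compared with 0.0105% of all tested genes (1), and 2 members had an unadjusted p under 0.05 (6.06%), compared with 7.05% of all tested genes. These 2 were Herpud1, with an interaction of 0.46 ± 0.17 and an adjusted p of 0.57, and Syvn1, with 0.30 ± 0.14 and an adjusted p of 0.68, both in limma. For Herpud1 the genotype difference was -0.12 housed apart and 0.33 co-housed. For Syvn1 it was -0.07 and 0.23, with values of 5.98, 6.00, 6.16 and 6.20 in Xiap-/- mice housed apart and 5.91 to 6.45, median 6.14, in WT mice housed apart. After these came Atf6, with an interaction of -0.26 ± 0.13 and an adjusted p of 0.72 in limma; WT mice housed apart read 5.63 to 5.97, median 5.82, for Atf6. In Xiap-/- mice housed apart Herpud1 read 7.10, 7.20, 7.29 and 7.53, within the WT range. Herpud1, Sdf2l1 and Pdia4 were the members whose 95% interval for the interaction passed 1.5-fold, so that interactions of that size were not excluded for these 3. Over the 5 comparisons, 161 of the 165 intervals lay within 1.5-fold and all 165 within 2-fold.

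Averaging over housing was added after the data had been seen. On that average, Hyou1 was the 1 member that passed, lower in Xiap-/- mice by a difference of -0.24 ± 0.07, or 0.846-fold, with an adjusted p of 0.046 in limma, compared with 2.06% of all tested genes called (196). Unadjusted, 5 of 33 members had a p under 0.05 (15.2%), compared with 20.5% of all tested genes. The call was lost when any of 15 of the 20 libraries was left out (kept without WT housed apart replicate 1, 3, 5 or 6 or Xiap-/- housed apart replicate 3), with differences still between -0.26 and -0.22 and adjusted p from 0.054 to 0.098 in limma. It was also lost without the minimum mean (-0.24, adjusted p 0.070), with median centring (-0.23, adjusted p 0.053) and with the depth proxy as a covariate (-0.21, adjusted p 0.26). Hyou1 fell below the stricter minimum mean of 5 and was not tested there. After Hyou1 came Atf4 at -0.22 (adjusted p 0.084), Atf6 at -0.19 (adjusted p 0.10) and Ssr1 at -0.16 (adjusted p 0.15), none of which passed in limma, nor did Canx at -0.15 (adjusted p 0.16). With library weights Atf4, Canx and Ssr1 passed beside Hyou1, and without WT housed apart replicate 5 Atf4 did. Over all tested genes the count of 196 rose with library weights too, and ranged from 36 to 957 as each library was left out. The matching average of housing over both genotypes called 0 of 33 members, compared with 0.179% of all tested genes (17), and 4 members had an unadjusted p under 0.05, compared with 14.4% of all tested genes. Trib3 came first there, with -0.30 ± 0.08 and an adjusted p of 0.078 in limma. It passed with library weights, without WT housed apart replicate 4 and without Xiap-/- housed apart replicate 1. There, too, the count of 17 over all tested genes rose with library weights, and ranged from 6 to 226 as each library was left out.

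Other genes of the same pathways did not pass in the planned comparisons either. The 6 lists, covering other sensors and regulators, folding genes, degradation, targeting and translocation, ER to Golgi transport and integrated stress response targets, held 158 tested genes. None of the 158 passed in limma in any of the 5 comparisons. An unadjusted p under 0.05 was found for 23 of them between genotypes housed apart (14.6%, compared with 15.8% of all tested genes) and for 20 co-housed (12.7%, compared with 12%). The same held for 9 genes for housing in WT (5.7%, compared with 10.2%), 14 for housing in Xiap-/- (8.86%, compared with 11.3%) and 6 for the interaction (3.8%, compared with 7.05%). Among the integrated stress response targets, 11 of 25 had an unadjusted p under 0.05 between the co-housed genotypes (44%), compared with 12% of all tested genes, and the smallest adjusted p was 0.18 in limma. Values stood on both sides of 0 there, 11 higher and 14 lower in Xiap-/- mice, with a median of -0.09. On the average over housing, 4 of the 158 genes passed in limma (2.53%), a share near the 2.06% of all tested genes. Cth, which makes cysteine from cystathionine, was higher in Xiap-/- mice (0.38 ± 0.08, adjusted p 0.015), while Aars, the alanyl-tRNA synthetase (-0.27 ± 0.06, adjusted p 0.025), Vcp, the ATPase that extracts proteins from the ER membrane (-0.31 ± 0.08, adjusted p 0.030), and Dnajc10, an ER reductase (-0.28 ± 0.08, adjusted p 0.048), were lower.
The 2 most abundant genes of each list gave 12 genes, none of which passed in limma in a planned comparison. Between genotypes housed apart, Vcp (-0.34 ± 0.11), Rpn1 of the oligosaccharyltransferase (-0.26 ± 0.09), the cargo receptor Surf4 (-0.03 ± 0.09), the retrieval receptor Kdelr1 (-0.02 ± 0.09), the asparaginyl-tRNA synthetase Nars (-0.00 ± 0.11) and Dad1, also of the oligosaccharyltransferase (-0.00 ± 0.09), were at or below 0. The cell death suppressor Tmbim6 (0.05 ± 0.11), the ER-bound factor Creb3l3 (0.14 ± 0.11), the prolyl isomerase Fkbp2 (0.19 ± 0.09), the ERAD lectin Os9 (0.21 ± 0.11), the goblet cell disulfide isomerase Agr2 (0.21 ± 0.12) and the amino acid transporter chain Slc3a2 (0.31 ± 0.14) were above 0. Adjusted p ranged from 0.12 for Vcp to 0.99 for Nars in limma. For housing in Xiap-/- mice, Rpn1 (0.20 ± 0.10) and Vcp (0.17 ± 0.11) were above 0. The other 10 genes were below it, from -0.01 ± 0.09 for Dad1 to -0.38 ± 0.15 for Slc3a2, with adjusted p from 0.20 for Os9 to 0.98 for Dad1 in limma.

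Within groups, no member co-varied with Hspa5 or with Atf4 past the threshold. For this test, each mouse's deviation from its group mean was taken, and correlations over the 20 mice were tested by 100000 permutations within groups, two-sided, with adjustment over all 19040 pairs of an anchor, Hspa5 or Atf4, and a gene. No member passed with Hspa5 (0 of 32, compared with 0% of all tested genes, smallest adjusted permutation p 0.81), and 2 of 32 had an unadjusted permutation p under 0.05, compared with 4.29% of all tested genes. These were Dnajb11 and Creld2, both ER proteins that work with or beside BiP. For Dnajb11 Pearson's r was 0.62 (permutation p 0.015) and Spearman's rho 0.50 (permutation p 0.043), adjusted to 0.97 and 1. Without the 2 mice farthest from the median of Hspa5, both WT housed apart, r was 0.51. For Creld2 r was 0.50 (permutation p 0.0023) and rho 0.66 (permutation p 0.0053), adjusted to 0.81 and 0.99, and r was 0.58 without those 2 mice. Hsp90b1, the partner of Hspa5 in the ER lumen, had r of 0.10 with it (permutation p 0.80), rho of 0.49 (permutation p 0.058) and r of 0.56 without the 2 mice. As each mouse was left out, that r ranged from -0.07 to 0.75, so its size rested on single mice. In all, 10 of 32 members had r above 0.3 with Hspa5 (31.2%), compared with 14.1% of all tested genes. With quantile normalization fewer members lay above 0.3, and r was 0.64 for Dnajb11 and 0.28 for Creld2. The share of all tested genes was not taken under that scaling.

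Atf4 showed no member past the threshold (0 of 32, compared with 0% of all tested genes, smallest adjusted permutation p 0.99) and 0 with an unadjusted permutation p under 0.05, compared with 5.61% of all tested genes. With its textbook targets r was 0.34 for Asns (asparagine synthetase, permutation p 0.26), -0.13 for Trib3 (permutation p 0.70) and -0.08 for Ddit3 (permutation p 0.77), and rho of 0.33 (permutation p 0.20), 0.04 (permutation p 0.90) and -0.00 (permutation p 0.99). Without the 2 mice farthest from the median of Atf4, r was 0.26, 0.03 and -0.15. An r above 0.3 with Atf4 was found for 6 of 32 members (18.8%), compared with 16.4% of all tested genes. Hspa5 and Atf4 had r of -0.39 with each other and 0.01 to 0.02 once the 2 farthest mice of either were left out, so that relation rested on those mice. Described over all 528 pairs of members, r had a mean of 0.11, compared with 0.0012 over all pairs of tested genes. The pairs share libraries and their depth. Disulfide isomerases had the highest mean r within a role, 0.32 over 15 pairs, and chaperones 0.23 over 55 pairs, while the sensors and factors had -0.04 over 10 pairs. The highest pairs were Dnajb9 with P4hb (0.86) and Xbp1 with Sdf2l1 (0.84), and the lowest was Txndc5 with Ddit3 (-0.70). Within groups Hspa5 had r of 0.30 with the mean log2 level of the 12 tested Paneth markers. For the mean of the 7 stem cell markers r was -0.48, and for the depth proxy it was 0.09. The part of cell types and depth in the correlations among members was not tested.

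**Figure D4:**
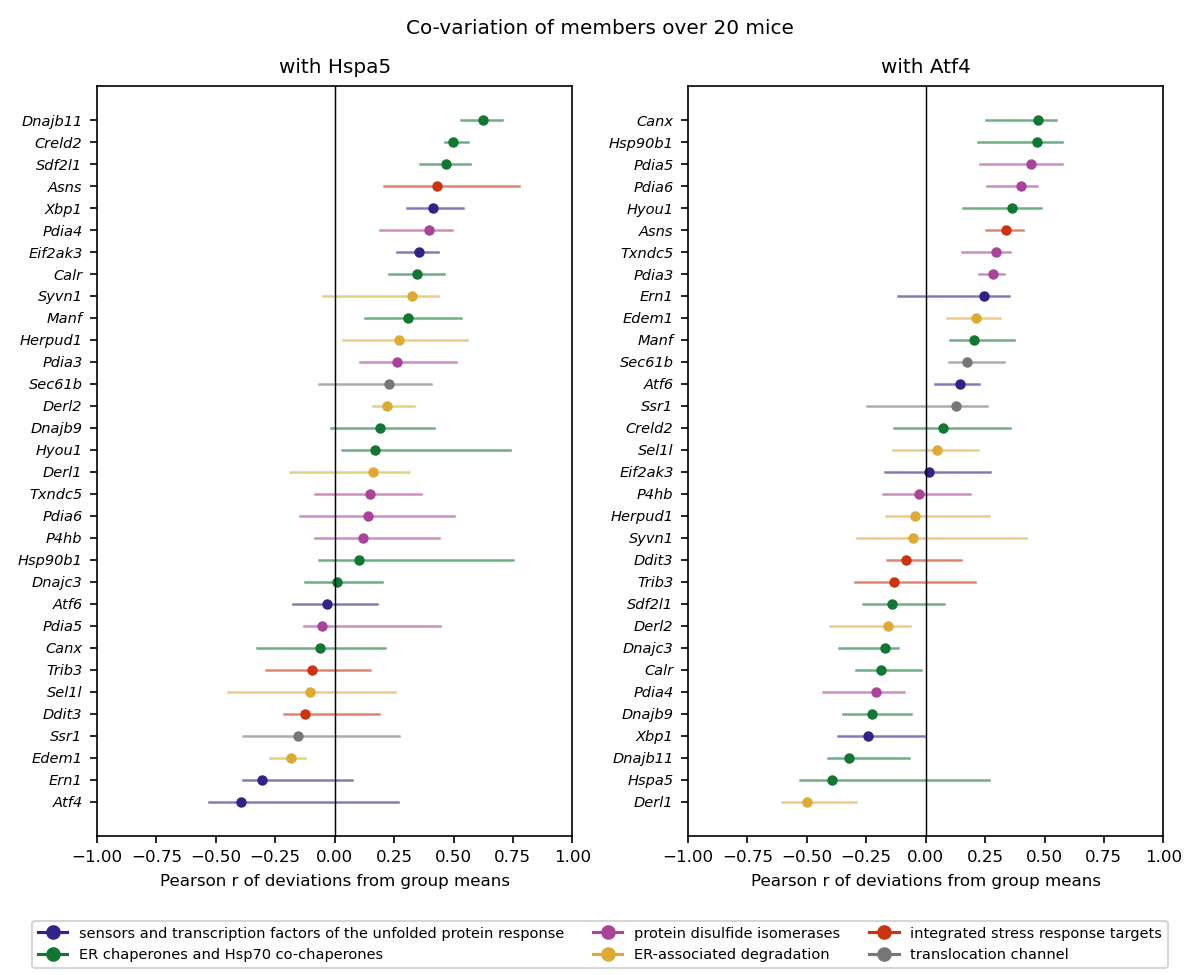
Pearson r (horizontal axis) of each of 32 members with Hspa5 (left) and with Atf4 (right) over 20 mice after group means were removed; points give r, lines its range as each mouse is left out, colours the role. Dnajb11 leads for Hspa5 at 0.62, and no r passes the adjusted threshold in either panel.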

How the data were processed

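The deposited file holds the authors' normalized values on a log2 scale for 23020 genes in 20 libraries, between -3.88 and 16.30. DESeq2 1.18.1 and the genome build GRCm38.p6 are named per the submitters' processing notes, the transformation and the aligner are not given in the sources used here, and per the labels' protocols libraries were made from 3′ ends with unique molecular identifiers. Without counts the depth is unknown, and no counting interval is given. The 36 members and all lists were chosen with earlier results of these data known. A gene was tested if its mean was at least log2 of 10 (9521 genes). In R 4.3.3, limma 3.58.1 fitted 4 group means to all 20 libraries (16 residual degrees of freedom, variance trend and robust moderation), with Benjamini-Hochberg adjustment over the tested genes. Genotype within each housing, housing within each genotype and the interaction were compared, and the averages over housing or genotype were added after seeing the data. Values of every mouse (range and median in the group of 6) are given for Hspa5, Hsp90b1, Xbp1, Atf4, Ddit3 and the 3 members with the smallest p in each comparison; of the other pathway genes those past the threshold and the 2 most abundant of each list are named. Nothing says that mice of a group came from separate litters or cages. The p-values therefore set differences against the spread between these mice, which may leave out spread between cages or litters. As mice housed apart were kept by genotype, genotype and cage cannot be told apart in them. The labels do not say whether the replicate numbers pair mice or mark a batch, and the main fit held no replicate block. Permutations were run in Python 3.11.15 with numpy 2.4.6. The limma fit and the permutation test were each tried on simulated data, and the promoter search was not. Promoter windows are from RefSeq (GRCm38.p6). Alternatives were other filters, moderation, weights, scalings, a depth proxy, a block and each library left out.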

Additional observations from a re-analysis of the deposited data

Results flagged for a closer look

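Among 144 pairs of a member and a group, 4 had 1 mouse far from the others of its group, by the gap to its nearest neighbour over the group's range, and chance alone gives about 1 in 20. Dnajc3, the cochaperone p58IPK, was 7.71 in WT co-housed replicate 1, and 7.96 to 8.05 in the other mice of that group. Txndc5 was 7.11 in WT co-housed replicate 2, and 7.29 to 7.35 in the others. Derl2 was 7.33 in Xiap-/- housed apart replicate 3, and 6.92 to 6.97 in the others. Chac1, below the minimum mean, was 1.11 in WT housed apart replicate 3, and 0.81 to 0.90 in the others.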

How the results depend on the processing

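The count of members past the threshold was 0 in each of the 5 planned comparisons and stayed 0 under the alternatives, apart from those named here. Housed apart, it was 2 with library weights, and 0 to 2 as each library was left out. Co-housed, it was 1 with only those groups in the fit. For housing in WT it was 0 to 2 as each library was left out, and for housing in Xiap-/- it was 1 with library weights. For the genotype average it was 1, 4 with library weights, 0 without a minimum mean, with a minimum mean of 5, with median centring or with the depth proxy, and 0 to 2 as each library was left out. For the housing average it was 1 with library weights and 0 to 2 as each library was left out. No named difference changed sign, and the cause of the lost or gained calls was not tested. Over all genes the counts moved more: housed apart 43 became 350 with the replicate block, 385 with library weights, 12 with only those groups, 65 without trend, 27 with a minimum mean of 5 and 3 with the depth proxy. Co-housed, 3 became 159 with weights, 142 with only those groups, 10 without a minimum mean and 0 with a minimum of 5. For housing in WT, 0 became 5 with weights or without a minimum mean. For housing in Xiap-/-, 14 became 189 with the block, 224 with weights, 169 with only those groups, 23 without trend, 9 with a minimum of 5 and 1 with the depth proxy. The interaction count of 1 became 10 with the block, 4 with weights and 0 with a minimum of 5. The genotype average of 196 became 582 with the block, 791 with weights and 6 with the depth proxy, and the housing average of 17 became 98, 135 and 4, and 27 without a minimum mean. With the replicate block the member counts stayed at 0 in the planned comparisons and 1 for the genotype average; 10 of 27 same-numbered pairs correlated above 0.1 (-0.42 to 0.36), and 6 of 20 libraries matched best with their own number. As each library was left out, the count over all genes ranged from 9 to 697 housed apart, 1 to 12 co-housed, 0 to 66 for housing in WT, 2 to 64 for housing in Xiap-/-, 36 to 957 for the genotype average and 6 to 226 for the housing average. Members with r above 0.3 numbered 10 with Hspa5 (5 with quantile normalization) and 6 with Atf4, and ranged from 5 (without WT housed apart replicate 3) to 14 with Hspa5 and from 3 (without WT housed apart replicate 5) to 10 (without WT co-housed replicate 4) with Atf4 as each library was left out. Depth is unknown, so it sets no stated limit on small differences of low genes such as Trib3.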
